A study of Mus musculus with 4 samples.

Results

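The subject here is a set of 71 genes for chromatin-modifying machinery in mouse embryonic fibroblasts: Polycomb repressive complexes 1 and 2 (PRC1 and PRC2), heterochromatin protein 1 (HP1), the SWI/SNF, ISWI and CHD remodellers, methyl-CpG binding and MTA proteins, histone deacetylases and sirtuins. They were chosen by gene name alone from the non-control probes of the array, which gave 146 probes of 41174 in all and 71 genes of 27745 names. The rule uses no measured value. An accession found in the RefSeq gene table was carried by 118 of the probes, and all 118 had the same symbol there; 1 probe, named Chd2, lies on another chromosome than its gene. The array carried 1 probe for 25 of these genes and several for 46.

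Polycomb proteins keep developmental genes silent. PRC2 methylates the tail of a histone through Ezh1 or Ezh2, with Suz12 and Eed as partners it cannot work without, and PRC1 compacts chromatin and ubiquitylates another histone through Ring1 or Rnf2. SWI/SNF (BAF), ISWI and CHD complexes use ATP to slide or evict nucleosomes, and the deacetylases and sirtuins remove acetyl groups from histones and other proteins. In fibroblasts driven towards pluripotency by introduced transcription factors, the complexes are known both as barriers and as helpers, and some subunits exist in versions used by stem cells and others used by differentiated cells.

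Total RNA of 4 conditions was hybridised to 1 single-colour (Cy3) array each. Those called four-factor here were embryonic fibroblasts that had received Oct3/4, Sox2, Klf4 and c-Myc by transduction and were kept for 72 hours at 5% or at 21% O2; their labels give day 4. The comparison cells were embryonic fibroblasts with no transduction in their labels, kept for 10 days at 5% or at 21% O2. The labels give neither the vector that carried the factors nor the strain or number of embryos. Both four-factor arrays lay on 1 slide and both untransduced arrays on another, so the factors, the time in culture and the slide cannot be told apart in any four-factor difference. An oxygen difference is within a slide. The 2 oxygen differences share no array with each other, nor do the 2 four-factor differences, but each oxygen difference shares arrays with both four-factor differences.

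Levels are log2 signal relative to the 75th percentile of the same array, and differences are differences of these levels. A gene is read from its brightest probe. Probes differ in their own efficiency, so a level says nothing about one gene against another. With 1 array per condition a difference has no replicate error and no test of its own. It was counted when it reached 2-fold (a difference of 1), with 1.5-fold as a second threshold, and the probe was well above background on both arrays. The scaling point was an intensity of 1148 at 5% and 1136 at 21% O2 in four-factor cells, against 871 at 5% and 810 at 21% O2 in untransduced fibroblasts. Signal well above background came from 68.4% and 68.1% of all probes in four-factor cells, against 58.3% and 57.1% in untransduced ones, and no spot was saturated. Replicate spots of a probe within 1 array differed by 0.059 to 0.096 log2 units (SD over 157 to 182 probes per array), which says how exact a spot is and nothing about repeat cultures.

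All 10 fibroblast markers tested were well above background on every array, which fits the labelled cell type. Of these, 9 were lower in four-factor cells at both oxygen levels, and 7 at least 2-fold lower (20% of all genes at 5% and 16.6% at 21% O2). Lum, a collagen-binding proteoglycan, had the largest difference, -6.31 log2 units at 5% and -5.60 at 21% O2 (four-factor minus untransduced). Vim went the other way, at 0.56 and 0.50. The 5 pluripotency markers on the array were mixed. The probe for Pou5f1, the gene of Oct3/4, exceeded background on the four-factor arrays alone (levels -0.20 at 5% and -0.59 at 21% O2). That for Zfp42 did so too (-4.33 at 5% and -5.54 at 21% O2). Nanog (-5.57) and Tdgf1 (-4.12) passed only on the four-factor array at 5% O2, and Esrrb passed on none. Oct3/4 is an introduced factor, and whether the Pou5f1 probe read the introduced copy was not tested. The 6 genes listed as known to rise in low oxygen were higher at 5% O2 in both cultures, with a median of 2.90 in the four-factor culture and 1.61 in the untransduced one. On the array 9 macrophage markers were well above background in untransduced fibroblasts, and only 4 of them in four-factor cells. Their summed signal, in multiples of the 75th percentile, was 0.512 at 5% and 0.659 at 21% O2 in four-factor cells, against 4.52 at 5% and 1.81 at 21% O2 in untransduced fibroblasts. In whole cultures, fewer cells of a type and less RNA per cell cannot be told apart. The part of these markers in the results below was not tested.

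The promoters of 6 of these genes are shown because the results turn on them. Ezh2, Suz12 and Eed encode the PRC2 core that was higher in four-factor cells, Cbx7 had the largest oxygen difference, and Cbx6 and Smarca1 were lower in four-factor cells. The stretches are from the RefSeq promoter table of build GRCm38.p6, given 5′ to 3′ on the gene's own strand, with positions counted from the start of transcription as +1. Capitals mark, on either strand, only the 1 motif named for that gene, and letters of the other motifs were left unmarked. E2F-type letters (TTTCCCGC, TTTGGCGC or TTTCGCGC) were searched because E2F factors serve proliferating cells, the E-box CACGTG because c-Myc binds it, and the core ACGTG or GCGTG because hypoxia-inducible factors bind it; the ACGTG core is also part of the E-box.
Ezh2, chr6:47595011-47595130, minus strand, -100 to +20, E2F-type letters at +4: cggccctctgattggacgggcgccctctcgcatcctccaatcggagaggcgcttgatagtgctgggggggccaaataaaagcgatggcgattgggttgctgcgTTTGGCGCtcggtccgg
Suz12, chr11:79992856-79992975, plus strand, -250 to -131, E2F-type letters at -219: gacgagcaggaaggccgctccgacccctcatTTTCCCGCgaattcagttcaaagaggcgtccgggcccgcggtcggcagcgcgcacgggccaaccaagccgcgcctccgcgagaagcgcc
Eed, chr7:89980957-89981076, minus strand, -100 to +20, no E2F-type letters: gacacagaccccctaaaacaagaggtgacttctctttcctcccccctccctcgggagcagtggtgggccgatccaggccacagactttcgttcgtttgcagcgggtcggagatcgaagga
Cbx7, chr15:79932637-79932816, minus strand, -170 to +10, hypoxia core letters at -156, -103, -33, -5 and +2: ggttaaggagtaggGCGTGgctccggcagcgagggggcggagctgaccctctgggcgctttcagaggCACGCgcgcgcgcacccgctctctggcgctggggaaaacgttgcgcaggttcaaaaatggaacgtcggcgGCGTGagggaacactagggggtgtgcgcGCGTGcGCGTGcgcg
Cbx6, chr15:79834314-79834433, minus strand, -100 to +20, E-box at -26: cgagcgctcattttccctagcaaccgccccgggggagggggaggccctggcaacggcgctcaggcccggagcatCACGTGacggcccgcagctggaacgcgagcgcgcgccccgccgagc
Smarca1, chrX:47892594-47892713, minus strand, -100 to +20, no E-box: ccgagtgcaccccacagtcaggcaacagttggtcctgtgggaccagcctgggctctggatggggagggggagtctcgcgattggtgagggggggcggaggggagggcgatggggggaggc

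The promoter table held 57 of the 71 genes, with 73 windows of 250 bases before to 50 bases after a start. E2F-type letters stood in 6.85% of those windows (Cbx3, Ezh2, Sirt4, Smarcd1 and Suz12), against 1.84% of all 32851 windows. The E-box stood in 13.7% of the windows against 7.15% of all, and the hypoxia core in 64.4% against 43.8%. Of the genes shown above, Ezh2, Suz12 and Cbx6 had a hypoxia core in their windows as well as Cbx7. A count of 5 or more hypoxia cores, as before Cbx7, stood in 1.66% of all windows. The windows of these genes were also richer in G and C, with a median of 64.3% and 23 CpG sites, against 52.7% and 7 over all windows. A higher share of GC-rich letters therefore stands beside a higher GC content, and its part was not tested. A match describes the letters only.

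Across the whole set, the four-factor and untransduced cultures differed more than the oxygen levels did, and the genes did not move as one block. At 5% O2, 11 of the 69 measured genes were at least 2-fold higher in four-factor cells, where 17.1% of all genes were, and 9 were at least 2-fold lower, where 20% of all genes were. At 21% O2, 6 were at least 2-fold higher in those cells (11.8% of all genes) and 5 at least 2-fold lower (16.6% of all genes). At 1.5-fold, 19 were higher (28% of all genes) and 16 lower (30.1%) at 5% O2, and 16 higher (23.2%) and 16 lower (26.1%) at 21% O2. Past 2-fold at both oxygen levels were 6 higher genes (10.6% of all genes) and 5 lower ones (14.2% of all genes), and past 1.5-fold 15 higher (21.2%) and 14 lower (22.9%). These shares are near or under the background, so the counts show nothing particular to the set. The median difference was 0.04 at 5% O2 and 0.07 at 21% O2, against -0.02 over all genes at either level. In oxygen, none of the 69 reached 2-fold in four-factor cells, where 1.25% of all genes were higher and 1.07% lower. In untransduced fibroblasts 1 gene, Cbx7, was at least 2-fold higher (2.54% of all genes) and none lower (1.72% of all genes).

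The other 2 genes, Phc3 (a PRC1 subunit) and Mbd5 (a methyl-CpG binding family protein), were not well above background on any array and have no difference here. Scaling the arrays on spiked-in control RNA instead would move the median of all genes to 0.61 and 0.38 in the four-factor differences at 5% and 21% O2, and to 0.14 and -0.11 in the oxygen differences of four-factor cells and untransduced fibroblasts. Under that scaling 54 and 49 of the 69 genes would be higher in four-factor cells at 5% and 21% O2, in place of 35 at each. Every direction below is therefore relative to the bulk of genes on the array. Over all genes, 70.9% at 5% and 67.3% at 21% O2 would be higher under that scaling.

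Spike-in scaling turned 19 four-factor differences of the set at 5% O2 and 14 at 21% O2, all of them to higher. At both oxygen levels these were Rnf2, Pcgf1, Phc1, Smarcd2, Smarce1, Chd3, Mbd1, Mbd6, Sirt3, Sirt5 and Sirt6. At 5% O2 alone Chd6, Chd9, Hdac4, Hdac5, Hdac8, Hdac10, Sirt1 and Sirt7 turned, and at 21% O2 alone Cbx1, Smarcd1 and Hdac3. Of the oxygen differences it turned 19 in four-factor cells, none larger than 0.14 in size, and 4 in untransduced fibroblasts, none larger than 0.05.

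**Figure D1:**
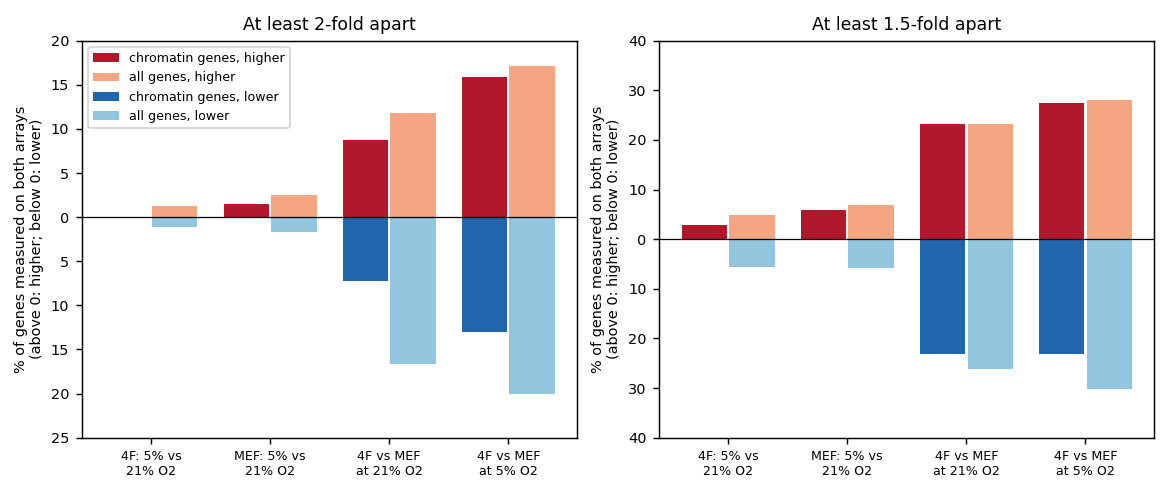
Share of genes at least 2-fold apart (left) and at least 1.5-fold apart (right) in each of the 4 comparisons, in percent of the genes measured on both arrays of the comparison. Dark bars are the 69 chromatin genes and light bars all genes, with higher shares above 0 and lower shares below 0; a missing dark bar is a share of 0, as for 2-fold differences with oxygen in four-factor cells (4F), and MEF stands for untransduced fibroblasts.

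All 5 measured PRC2 genes lay higher in four-factor cells at both oxygen levels. Over all genes, 49.3% were higher at 5% O2 and 49.0% at 21% O2. The PRC2 differences had a median of 1.37 at 5% O2 and 0.79 at 21% O2. They were also all higher under quantile normalization, and 4 of 5 at 5% O2 with normexp background correction, where Ezh1 was at -0.16. Spike-in scaling raises every four-factor difference of a comparison by the same amount, so it could not turn them. Suz12, the zinc finger subunit that holds PRC2 together, had levels of 2.16 (5% O2) and 1.68 (21% O2) in four-factor cells, against 0.15 (5% O2) and 0.40 (21% O2) in untransduced fibroblasts. It was 4.02-fold higher at 5% O2 and 2.43-fold higher at 21% O2. Its second probe gave smaller differences, 1.07 at 5% and 0.64 at 21% O2, the latter under 2-fold. On either probe both four-factor arrays lay above both untransduced arrays.

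Ezh2, the methyltransferase of dividing cells, followed the same order, with levels of 1.92 (5% O2) and 1.45 (21% O2) in four-factor cells, against -0.01 (5% O2) and 0.04 (21% O2) in untransduced fibroblasts. That made it 3.82-fold higher at 5% O2 and 2.65-fold higher at 21% O2. Its probe lies at chr6:47461634-47462529 of build mm8, and that of Suz12 at chr11:79849944-79850003; an annotation of that build was not used here. Eed, which reads the mark PRC2 makes and stimulates the enzyme, had levels of 2.20 (5% O2) and 1.88 (21% O2) in four-factor cells, against 0.83 (5% O2) and 1.10 (21% O2) in untransduced fibroblasts. It reached 2-fold only at 5% O2, with 2.58-fold against 1.73-fold at 21% O2.

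Ezh1, the other methyltransferase, did not follow Ezh2. Its levels were -2.43 (5% O2) and -2.32 (21% O2) in four-factor cells, against -2.49 (5% O2) and -3.02 (21% O2) in untransduced fibroblasts, so the four-factor arrays lay beside the untransduced array at 5% O2 and above the one at 21% O2. Jarid2, which guides PRC2 to its sites, had levels of 0.42 (5% O2) and -0.09 (21% O2) in four-factor cells, against -0.09 (5% O2) and -0.37 (21% O2) in untransduced fibroblasts, so the four-factor array at 21% O2 and the untransduced array at 5% O2 stood together. Neither gene reached 2-fold on its brightest probe. A dimmer Jarid2 probe, well above background on every array, gave larger four-factor differences, 1.19 at 5% and 1.14 at 21% O2. On that probe both four-factor arrays lay above both untransduced arrays. Among 6 further PRC2 partners, Rbbp4 (a histone chaperone that PRC2 shares with deacetylase complexes) was 1.66 higher and Phf1 (an accessory protein) 1.94 lower in four-factor cells at 5% O2, and at 2-fold 2 were higher and 1 lower there; at 21% O2 none was higher and 1, Phf1, lower (-1.25).

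A model over all 4 arrays with terms for culture and oxygen has 1 residual degree of freedom. What it takes for error is how far the oxygen differences of both cultures disagree, shared over genes by limma. Its culture term passed at an adjusted p under 0.05 for 9170 of 18361 genes (49.9%) and for 32 of the 69 genes here, 16 in each direction. In PRC2 it passed for Ezh2 (1.67, SE 0.21, adjusted p 0.00978), Suz12 (1.65, SE 0.25, adjusted p 0.0134) and Eed (1.08, SE 0.22, adjusted p 0.0246), and not for Jarid2 (0.39, adjusted p 0.129) or Ezh1 (0.38, adjusted p 0.241). All p-values from limma are adjusted by Benjamini-Hochberg over all genes fitted. The term treats the 2 oxygen levels of a culture as its repeats and carries slide and time in culture with it.

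Markers of dividing cells differed alongside PRC2. All 11 measured proliferation markers, such as the replication genes Mcm5 and Mcm3, were higher in four-factor cells (median 2.30 at 5% O2 and 1.42 at 21% O2). Summed, they gave 199 times the 75th percentile at 5% and 144 times at 21% O2 in four-factor cells, against 41.0 times at 5% and 52.0 times at 21% O2 in untransduced fibroblasts. With oxygen they went opposite ways in the cultures: at 5% O2 all 11 were higher in four-factor cells (median 0.55) and all 11 lower in untransduced fibroblasts (median -0.32). Ezh2, Suz12 and Eed had the same signs, at 0.47, 0.47 and 0.31 in four-factor cells and -0.05, -0.25 and -0.27 in untransduced fibroblasts. Ezh1 had the reverse signs (-0.11 and 0.53), and Jarid2 was higher at 5% O2 in both cultures (0.50 and 0.27). Opposite signs in the 2 cultures were common, in 35 of the 69 genes and in 44.6% of all genes. The part of proliferation in the PRC2 values was not tested.

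**Figure D2:**
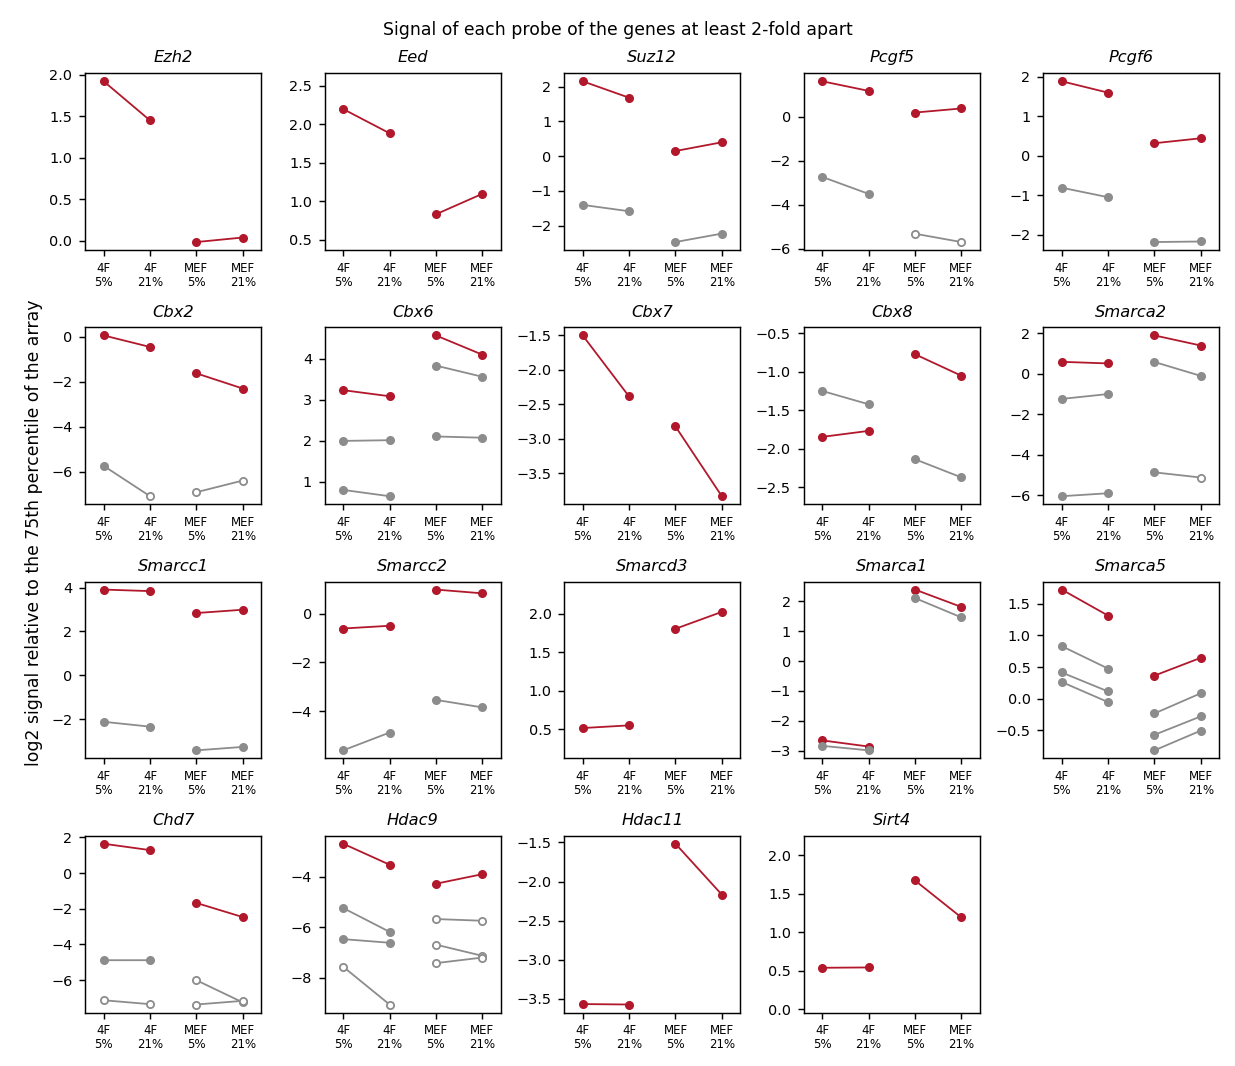
Level of every probe of 19 genes at least 2-fold apart in any comparison, as log2 signal over that array's 75th percentile, in four-factor cells (4F) and untransduced fibroblasts (MEF) at 5% and 21% O2; each panel has its own axis. Red is the brightest probe, which the text uses, grey the others, an open point is not well above background, and each point is 1 array; the probes of Smarca1 drop by over 4 units in four-factor cells, and the 2 probes of Cbx8 run in opposite directions.

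In PRC1 the four-factor cells had more signal for some interchangeable subunits and less for others. Of 15 measured genes 7 were higher and 8 lower at each oxygen level (medians -0.12 at 5% and -0.16 at 21% O2), and spike-in scaling turned both medians, with 10 higher and 5 lower. The catalytic genes moved little. Rnf2, the main ubiquitin ligase, had levels of 1.77 (5% O2) and 1.90 (21% O2) in four-factor cells, against 2.09 (5% O2) and 2.20 (21% O2) in untransduced fibroblasts, a difference of -0.31 at 5% and -0.30 at 21% O2 that spike-in scaling turned to 0.31 at 5% and 0.10 at 21% O2. Ring1, its paralogue, had levels of -1.31 (5% O2) and -1.37 (21% O2) in four-factor cells, against -1.38 (5% O2) and -1.55 (21% O2) in untransduced fibroblasts, and a second probe gave differences of -0.77 at 5% and -0.96 at 21% O2.

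The PCGF subunits, which define the variants of PRC1, split. Pcgf6, a subunit of the variant complex that holds germline genes silent in stem cells, had levels of 1.88 (5% O2) and 1.59 (21% O2) in four-factor cells, against 0.31 (5% O2) and 0.44 (21% O2) in untransduced fibroblasts. It was 2.96-fold higher at 5% and 2.22-fold higher at 21% O2, and its second probe gave differences of 1.37 at 5% and 1.12 at 21% O2. Pcgf5 had levels of 1.62 (5% O2) and 1.18 (21% O2) in four-factor cells, against 0.20 (5% O2) and 0.38 (21% O2) in untransduced fibroblasts, 2.68-fold higher at 5% and 1.74-fold at 21% O2. For Bmi1 (Pcgf4), known as a repressor of the Cdkn2a locus, the order was the reverse: levels were 0.52 (5% O2) and 0.38 (21% O2) in four-factor cells, against 1.19 (5% O2) and 1.17 (21% O2) in untransduced fibroblasts. Its culture term was -0.73 (SE 0.16, limma adjusted p 0.0303). Pcgf1, Pcgf2 and Pcgf3 lay between -0.83 and 0.22 at both oxygen levels.

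The CBX subunits, which bind the mark made by PRC2, gave the widest spread in PRC1. Cbx2 had levels of 0.07 (5% O2) and -0.44 (21% O2) in four-factor cells, against -1.62 (5% O2) and -2.30 (21% O2) in untransduced fibroblasts, and was 3.22-fold higher at 5% and 3.61-fold higher at 21% O2. Cbx7, the CBX protein most used by embryonic stem cells, had levels of -1.50 (5% O2) and -2.39 (21% O2) in four-factor cells, against -2.82 (5% O2) and -3.84 (21% O2) in untransduced fibroblasts, 2.50-fold higher at 5% and 2.72-fold at 21% O2. For both genes every four-factor array lay above every untransduced array, and every 5% array above the 21% array of its culture. The culture term was 1.77 for Cbx2 (SE 0.17, limma adjusted p 0.00629) and 1.38 for Cbx7 (SE 0.16, limma adjusted p 0.00905).

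Cbx6 was lower in four-factor cells and Cbx8 is uncertain. Cbx6 had levels of 3.24 (5% O2) and 3.09 (21% O2) in four-factor cells, against 4.58 (5% O2) and 4.11 (21% O2) in untransduced fibroblasts, 2.53-fold lower at 5% and 2.02-fold lower at 21% O2, and its 3 probes all ran that way. The brightest probe of Cbx8 gave levels of -1.84 (5% O2) and -1.77 (21% O2) in four-factor cells, against -0.77 (5% O2) and -1.05 (21% O2) in untransduced fibroblasts, but its other probe, at chr11:118854553-118854612 of build mm8, ran the other way, with four-factor differences of 0.89 at 5% and 0.95 at 21% O2. The culture term of Cbx8 was -0.90 (SE 0.18, limma adjusted p 0.0255) on the brightest probe and 0.01 on the mean of both, with adjusted p-values between 0.000428 and 0.960 over the alternatives.

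Among the polyhomeotic subunits, Phc2 had levels of 3.91 (5% O2) and 4.16 (21% O2) in four-factor cells, against 3.49 (5% O2) and 3.77 (21% O2) in untransduced fibroblasts. On its brightest probe Phc1 differed by -0.12 at 5% and -0.37 at 21% O2, which spike-in scaling turned to 0.50 and 0.03. Its dimmer probes, well above background on every array, lay lower. They gave -0.63 and -0.47 at 5% O2, and -0.80 and -1.30 at 21% O2. Phc2 was the PRC1 gene with the lowest oxygen difference in both cultures, -0.25 in four-factor cells against -0.28 in untransduced fibroblasts. The 5 measured partners of PRC1 had 1 gene past 2-fold at each oxygen level, Auts2 (a subunit of PCGF5-containing complexes), at -2.13 (5% O2) and -2.0 (21% O2). The HP1 genes Cbx1, Cbx3 and Cbx5 belong to constitutive heterochromatin and not to Polycomb. None reached 2-fold; the four-factor difference of Cbx5 was 0.82 at 5% and 0.81 at 21% O2, and the signs of Cbx1 and Cbx3 differed between oxygen levels.

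**Figure D3:**
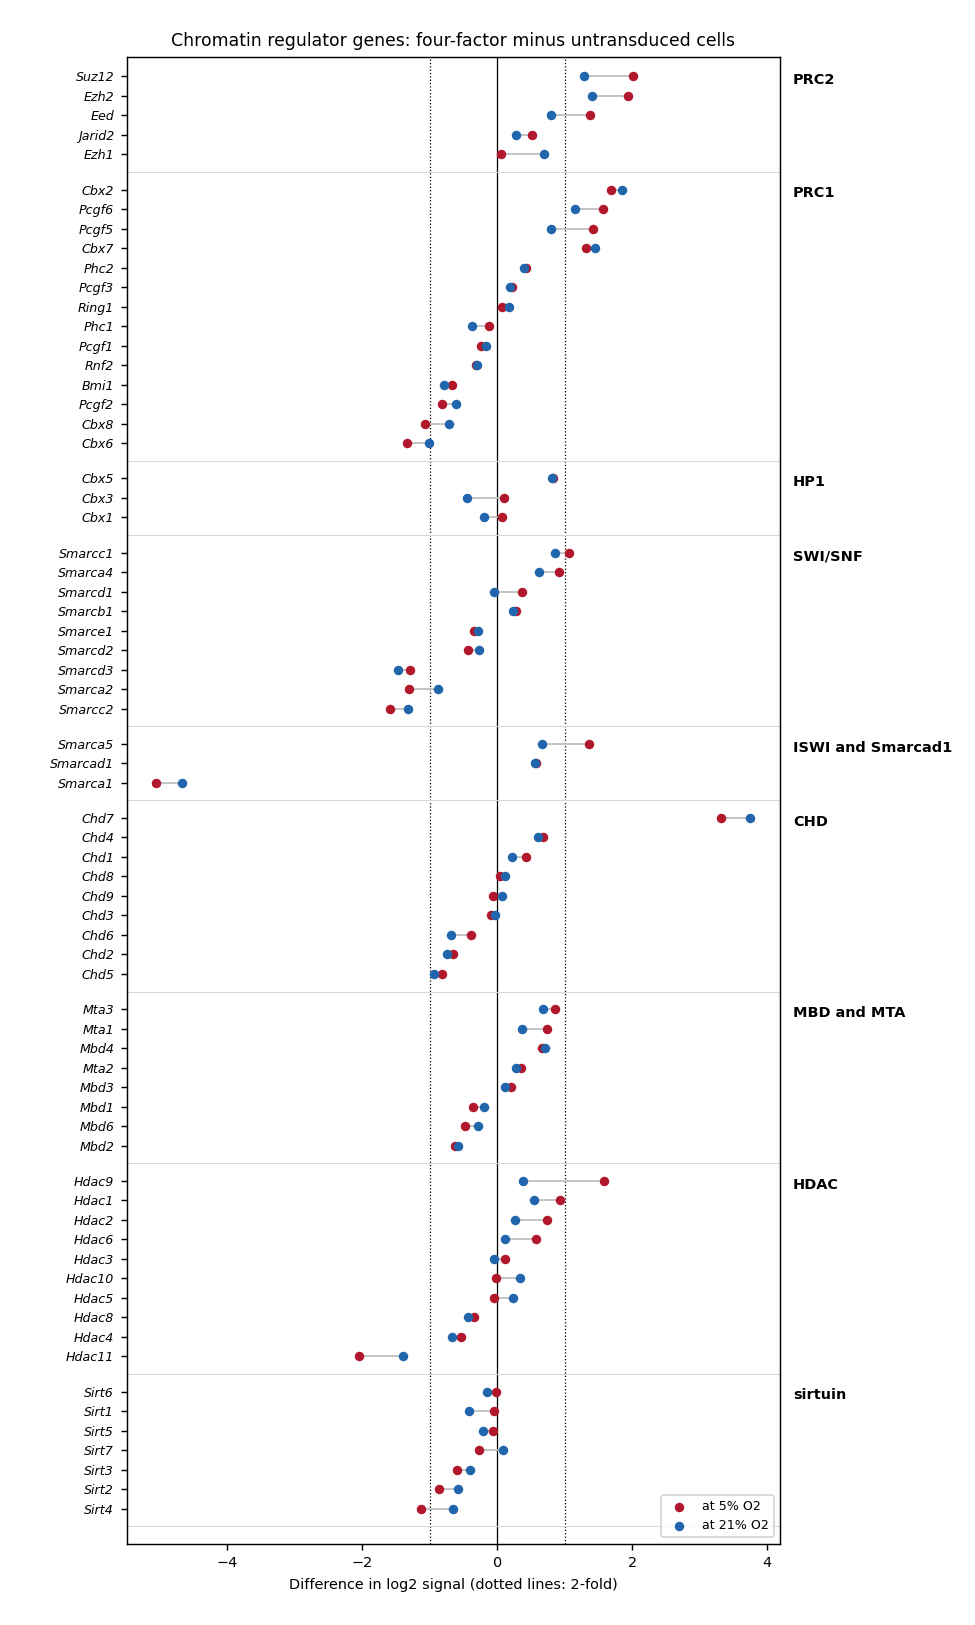
Four-factor minus untransduced difference in log2 signal for 68 of the measured genes, grouped by complex, at 5% O2 (red) and 21% O2 (blue), with dotted lines at 2-fold; each point is a difference of 2 arrays. The 5 PRC2 genes lie right of 0 (Ezh1 moves to -0.16 at 5% O2 with normexp background), Chd7 and Smarca1 lie farthest out, and scaling on spike-ins would shift the points right by the same amount within a comparison.

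In SWI/SNF, paralogous subunits went opposite ways, while the median was -0.35 at 5% and -0.28 at 21% O2 (4 of 9 and 3 of 9 higher); spike-in scaling turned the medians to 0.27 at 5% and 0.12 at 21% O2. Of the ATPases, Smarca4 (Brg1) had levels of 4.80 (5% O2) and 4.78 (21% O2) in four-factor cells, against 3.88 (5% O2) and 4.16 (21% O2) in untransduced fibroblasts. Smarca2 (Brm), its alternative, had levels of 0.59 (5% O2) and 0.51 (21% O2) in four-factor cells, against 1.89 (5% O2) and 1.40 (21% O2) in untransduced fibroblasts. So Smarca4 was 1.89-fold and 1.54-fold higher at 5% and 21% O2, and Smarca2 was 2.47-fold lower at 5% and 1.85-fold at 21% O2. The culture terms were 0.77 (SE 0.18, limma adjusted p 0.0324) and -1.09 (SE 0.19, limma adjusted p 0.0184).

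The scaffold subunits split in the same way. Smarcc1 (BAF155), the version of the embryonic stem cell complex, had levels of 3.91 (5% O2) and 3.84 (21% O2) in four-factor cells, against 2.84 (5% O2) and 2.99 (21% O2) in untransduced fibroblasts, 2.10-fold higher at 5% and 1.80-fold at 21% O2. Smarcc2 (BAF170) had levels of -0.61 (5% O2) and -0.50 (21% O2) in four-factor cells, against 0.98 (5% O2) and 0.82 (21% O2) in untransduced fibroblasts, 3.01-fold lower at 5% and 2.51-fold at 21% O2. Both splits kept their signs under all scalings tried. The culture term was 0.96 for Smarcc1 (SE 0.17, limma adjusted p 0.0186) and -1.46 for Smarcc2 (SE 0.17, limma adjusted p 0.00912).

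Smarcd3 (BAF60c), known from heart and muscle, was lower in four-factor cells as well. Its levels were 0.51 (5% O2) and 0.55 (21% O2) in four-factor cells, against 1.80 (5% O2) and 2.02 (21% O2) in untransduced fibroblasts, 2.45-fold lower at 5% and 2.78-fold lower at 21% O2. Contractile markers were lower alongside it, 5 of 6 at 5% O2 (median -0.60) and 6 of 6 at 21% O2 (median -0.94). All 6 were well above background on every array, and their summed signal was 310 times the 75th percentile at 5% and 513 times at 21% O2 in four-factor cells, against 457 times at 5% and 980.1 times at 21% O2 in untransduced fibroblasts. With oxygen all 6 were lower at 5% O2 in both cultures (medians -0.74 in the four-factor culture and -1.16 in the untransduced one), where Smarcd3 differed by -0.03 and -0.22. Their part in the Smarcd3 values was not tested. Its paralogues Smarcd1 and Smarcd2 lay between -0.44 and 0.36. The common core subunit Smarcb1 (SNF5) had levels of 4.32 (5% O2) and 4.20 (21% O2) in four-factor cells, against 4.04 (5% O2) and 3.96 (21% O2) in untransduced fibroblasts, and did not pass the culture term (0.26, limma adjusted p 0.246). Smarce1 differed by -0.35 at 5% and -0.29 at 21% O2, and lay above 0 under spike-in scaling.

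Of 15 other BAF and PBAF genes on the array 13 were measured in both cultures. At 5% O2, Bcl7a (1.35) and Actl6a (1.27), the actin-like subunit of proliferating progenitors, were at least 2-fold higher in four-factor cells and Bcl7c (-1.11) at least 2-fold lower; at 21% O2 only Bcl7a (1.10) passed. The neuronal counterpart Actl6b was not well above background on any array. Dpf3 had signal well above background on the four-factor arrays alone, where it was 1.24 higher at 5% than at 21% O2.

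The ISWI ATPases held the largest difference of the set. Smarca1 (Snf2l) had levels of -2.66 (5% O2) and -2.86 (21% O2) in four-factor cells, against 2.39 (5% O2) and 1.81 (21% O2) in untransduced fibroblasts. It was 33.2-fold lower at 5% O2 and 25.6-fold lower at 21% O2. Its second probe gave -4.95 at 5% and -4.45 at 21% O2, and its culture term was -4.86 (SE 0.19, limma adjusted p 0.0030). The brighter probe lies at chrX:44054356-44054415 of build mm8. Smarca5 (Snf2h), the ISWI ATPase that proliferating cells need, had levels of 1.72 (5% O2) and 1.31 (21% O2) in four-factor cells, against 0.36 (5% O2) and 0.65 (21% O2) in untransduced fibroblasts, 2.56-fold higher at 5% and 1.58-fold higher at 21% O2, with all 4 probes higher. Smarcad1, a separate remodeller, was higher by 0.57 at 5% and 0.56 at 21% O2.

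Of 7 measured partners of these ATPases and of INO80, 4 were at least 2-fold higher in four-factor cells at 5% O2 (17.1% of all genes were) and 3 at 21% O2 (11.8% of all genes), and none was 2-fold lower. Of the 7, 2 had differences below 0 at both oxygen levels, among them Baz1b at -0.18 (5% O2) and -0.78 (21% O2). Baz1a (ACF1), a partner of Smarca5, was higher by 3.26 at 5% and 2.65 at 21% O2, and the ATPases Ruvbl2 and Ruvbl1 were higher by 2.23 and 1.56 at 5% O2.

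In the CHD family 1 gene stood far from the rest. Chd7, a remodeller active in neural crest and stem cells, had levels of 1.64 (5% O2) and 1.28 (21% O2) in four-factor cells, against -1.68 (5% O2) and -2.47 (21% O2) in untransduced fibroblasts. It was 9.96-fold higher at 5% O2 and 13.4-fold higher at 21% O2, and its culture term was 3.53 (SE 0.19, limma adjusted p 0.00364). Its brightest probe lies at chr4:8793693-8793752 of build mm8; a dimmer probe was well above background in four-factor cells only. No other CHD gene reached 2-fold on its brightest probe. Chd4, the ATPase of the NuRD deacetylase complex, had levels of 2.91 (5% O2) and 2.92 (21% O2) in four-factor cells, against 2.23 (5% O2) and 2.32 (21% O2) in untransduced fibroblasts, and passed the culture term (0.64, SE 0.16, limma adjusted p 0.0402).

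Chd5, a neural NuRD ATPase, had levels of -4.95 (5% O2) and -4.79 (21% O2) in four-factor cells, against -4.14 (5% O2) and -3.84 (21% O2) in untransduced fibroblasts. Chd1, whose loss is known to close the chromatin of mouse stem cells, differed by 0.43 at 5% and 0.22 at 21% O2, and Chd3 and Chd8 by no more than 0.11 in size at either level. Dimmer probes, well above background on every array, differed more. That of Chd8 gave -1.13 at 5% and -0.66 at 21% O2, and the dimmest of Chd1 gave 1.08 and 0.97. Chd2 (-0.65 at 5% and -0.75 at 21% O2) and Chd6 (-0.39 and -0.68 there, with 0.23 at 5% O2 under spike-in scaling) were the other lower genes, and Chd9 lay within 0.07 of 0. The median of the 9 CHD genes was -0.07 at 5% and 0.07 at 21% O2, and 0.55 and 0.47 under spike-in scaling.

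On their brightest probes, the methyl-CpG binding and MTA genes stayed within 2-fold in all 4 comparisons. A dimmer Mbd6 probe gave four-factor differences of -1.10 at 5% and -0.65 at 21% O2. Mbd3, the NuRD subunit much studied in reprogramming, had levels of 2.28 (5% O2) and 2.38 (21% O2) in four-factor cells, against 2.08 (5% O2) and 2.27 (21% O2) in untransduced fibroblasts, and its four-factor differences of 0.20 at 5% and 0.12 at 21% O2 turned to values below 0 with normexp background. Mbd2, its methyl-DNA binding counterpart, had levels of 0.71 (5% O2) and 0.62 (21% O2) in four-factor cells, against 1.34 (5% O2) and 1.20 (21% O2) in untransduced fibroblasts. The culture term passed for Mbd2 (-0.60, SE 0.16, limma adjusted p 0.0453) and not for Mbd3 (0.16, limma adjusted p 0.457). Mta1, Mta2 and Mta3, also of NuRD, were higher by 0.27 to 0.86 on their brightest probes. Dimmer probes, well above background on every array, gave less. That of Mta2 gave 0.05 at 5% and -0.12 at 21% O2, and that of Mta3 0.05 and 0.10. Mbd4, a DNA repair glycosylase, was higher by 0.66 at 5% and 0.71 at 21% O2, and Mbd1 and Mbd6 lay between -0.48 and -0.19, turned by spike-in scaling.

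Among the classical deacetylases, Hdac1 had levels of 4.58 (5% O2) and 4.44 (21% O2) in four-factor cells, against 3.65 (5% O2) and 3.90 (21% O2) in untransduced fibroblasts, 1.90-fold higher at 5% and 1.46-fold higher at 21% O2 (culture term 0.74, SE 0.19, limma adjusted p 0.0413). Hdac2, its partner in NuRD and Sin3 complexes, had levels of 0.11 (5% O2) and -0.09 (21% O2) in four-factor cells, against -0.63 (5% O2) and -0.35 (21% O2) in untransduced fibroblasts, and did not pass (0.50, limma adjusted p 0.113). Hdac3, the NCoR enzyme, had levels of 2.24 (5% O2) and 2.14 (21% O2) in four-factor cells, against 2.12 (5% O2) and 2.20 (21% O2) in untransduced fibroblasts, so the arrays of both cultures overlapped. Hdac4, Hdac5, Hdac6, Hdac8 and Hdac10 lay between -0.67 and 0.57 in both four-factor differences.

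Hdac11 was the deacetylase with the lowest four-factor difference. Its levels were -3.57 on both four-factor arrays against -1.52 (5% O2) and -2.17 (21% O2) in untransduced fibroblasts, which made it 4.14-fold lower at 5% and 2.65-fold lower at 21% O2 (culture term -1.73, SE 0.23, limma adjusted p 0.0109). Hdac9, a class IIa enzyme of muscle and other tissues, had levels of -2.69 (5% O2) and -3.52 (21% O2) in four-factor cells, against -4.27 (5% O2) and -3.89 (21% O2) in untransduced fibroblasts. It was 3.0-fold higher at 5% O2 and 1.30-fold higher at 21% O2. With normexp background it reached 1.5-fold and not 2-fold at 5% O2. None of its other probes was well above background in untransduced fibroblasts. The oxygen differences of Hdac9 had opposite signs, 0.83 in four-factor cells against -0.38 in untransduced fibroblasts. Its culture term did not pass (0.98, SE 0.35, limma adjusted p 0.0857).

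Of 11 measured partners of deacetylase complexes, 3 at 5% and 2 at 21% O2 were at least 2-fold higher in four-factor cells (17.1% and 11.8% of all genes were) and none 2-fold lower, while 4 at 5% and 5 at 21% O2 had differences below 0. Sap30, a Sin3 subunit, was higher by 3.22 at 5% and 2.44 at 21% O2, and Rcor2, a CoREST protein, by 1.98 and 1.76. Sirtuins, which need NAD, lay lower: 7 of 7 at 5% O2 (median -0.27) and 6 of 7 at 21% O2 (median -0.40). Over all genes, 49.3% were higher at 5% O2 and 49.0% at 21% O2. Sirt1 (-0.06), Sirt5 (-0.06) and Sirt6 (-0.02) lay close to 0 at 5% O2. Quantile normalization, normexp background or the mean of all probes left 6 of 7 lower at 5% O2. Spike-in scaling left only 2 lower at 5% and 3 at 21% O2. Sirt4, a mitochondrial sirtuin, had levels of 0.54 on both four-factor arrays against 1.67 (5% O2) and 1.19 (21% O2) in untransduced fibroblasts, 2.20-fold lower at 5% and 1.57-fold lower at 21% O2. Sirt2 had levels of 1.58 (5% O2) and 1.87 (21% O2) in four-factor cells, against 2.45 (5% O2) and 2.46 (21% O2) in untransduced fibroblasts. Sirt1, the sirtuin nearest to yeast Sir2, had levels of -0.31 (5% O2) and -0.63 (21% O2) in four-factor cells, against -0.25 (5% O2) and -0.21 (21% O2) in untransduced fibroblasts, and its second probe ran the other way (0.74 at 5% and 0.39 at 21% O2). Sirt3, Sirt5, Sirt6 and Sirt7 lay between -0.60 and 0.09.

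Oxygen differences of these genes were mostly small, and those that reached 1.5-fold were all higher at 5% O2. In four-factor cells 2 reached 1.5-fold, Cbx7 and Hdac9, where 4.78% of all genes were higher, and none was lower, where 5.69% of all genes were. In untransduced fibroblasts 4 reached 1.5-fold, Cbx7, Chd7, Cbx2 and Hdac11, where 6.91% of all genes were higher, and none was lower, where 5.72% of all genes were. Cbx7 was the 1 gene of the set past 1.5-fold in both cultures, with differences of 0.89 in four-factor cells against 1.01 in untransduced fibroblasts; 1.11% of all genes were higher in both. Its single probe lies at chr15:79743093-79743152 of build mm8. With normexp background the oxygen differences of the set narrowed, and none reached 1.5-fold in untransduced fibroblasts.

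In four-factor cells 46 of 69 genes were higher at 5% O2 (median 0.10, against -0.01 over all genes), where 48.2% of all genes were, and spike-in scaling made them 65, where 68.5% of all genes were higher. In untransduced fibroblasts 33 were higher and 36 lower (median -0.01, against -0.04 over all genes), where 44.8% of all genes were higher. Quantile normalization made them 39 and 30, where 49.3% of all genes were higher. The PRC2 median was 0.47 in four-factor cells against -0.05 in untransduced fibroblasts. The spread of the set was narrower than that of all genes, with an SD of 0.24 against 0.38 in four-factor cells and 0.29 against 0.44 in untransduced fibroblasts. With normexp background these were 0.22 against 0.30 and 0.24 against 0.35. The genes were not matched for signal level, and its part in the spread was not tested. Lowest with oxygen were Sirt2 (-0.29) and Phc2 (-0.25) in four-factor cells, and Hdac9 (-0.38) and Chd5 (-0.30) in untransduced fibroblasts.

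The oxygen term of limma over the 4 arrays passed for none of the 69 genes and none of the 18361 fitted. With normexp background it passed for 182 genes (0.991%), none of the set, and under spike-in scaling for 549 (2.99%), 1 of the set. At an unadjusted p under 0.05 it held 1400 genes (7.62%), of which 4 belong to the set: Cbx7, Cbx2, Mbd4 and Chd7, all higher at 5% O2. For Cbx7 it was 0.95 (SE 0.16, adjusted p 0.595), and adjusted p-values over its alternatives ran between 0.0348 under spike-in scaling and 0.804. In untransduced fibroblasts the macrophage markers were also higher at 5% O2, all 9 of them (median 1.41), and 5 of 6 neural and glial markers (median 1.12). In four-factor cells all 4 measured macrophage markers were lower at 5% O2 (median -0.32), and 3 of 5 neural and glial markers higher (median 0.10). The differences there were 0.89 for Cbx7, 0.36 for Chd7, 0.51 for Cbx2 and 0.01 for Hdac11. The part of these markers in the higher Cbx7, Chd7, Cbx2 and Hdac11 signals was not tested.

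**Figure D4:**
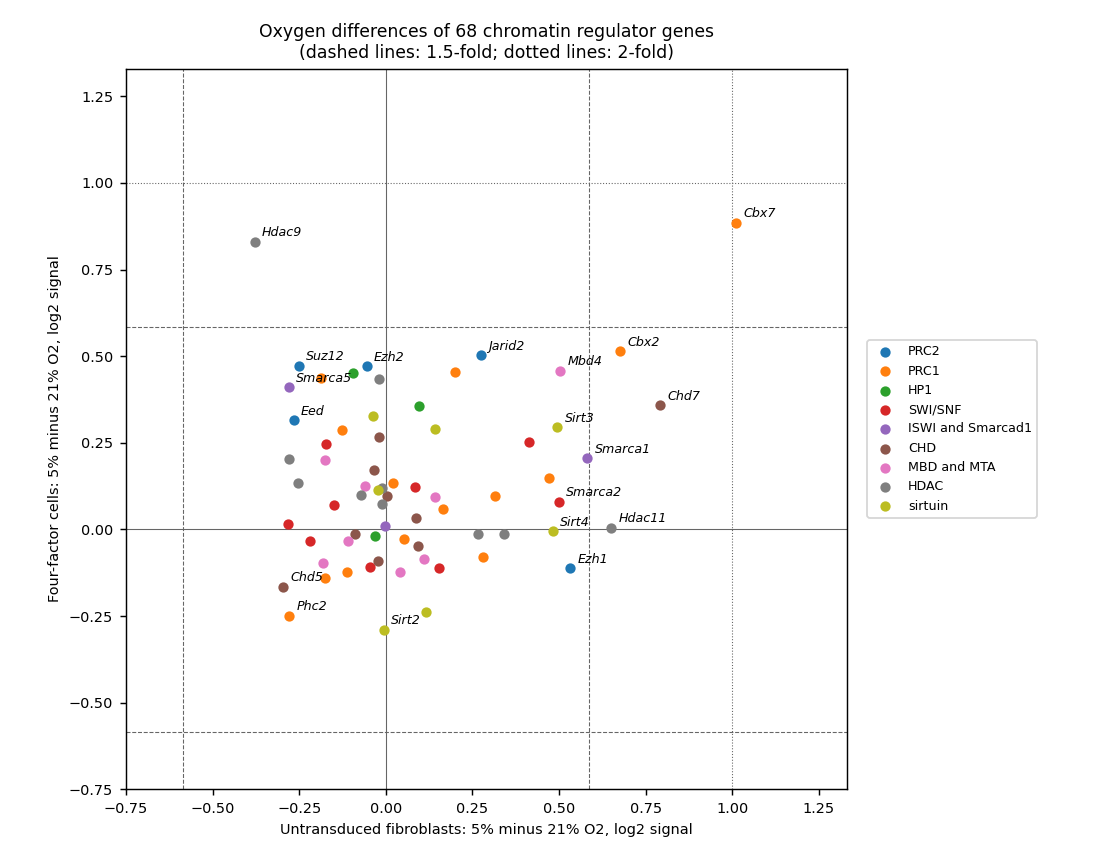
Oxygen difference (5% minus 21% O2, log2 signal) of 68 of the measured genes in four-factor cells (vertical) against untransduced fibroblasts (horizontal), coloured by complex, with dashed lines at 1.5-fold and dotted lines at 2-fold. Each axis is a difference of 2 arrays; Cbx7 lies past 1.5-fold on both (0.89 and 1.01), Hdac9 on the vertical axis only, and Chd7, Cbx2 and Hdac11 on the horizontal axis only.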

How the data were processed

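The members and gene lists were chosen with earlier results of these data known. The 4 single-colour arrays were read, per the file headers, by version 9.5.3.1 of Agilent Feature Extraction under protocol GE1-v5_95_Feb07, and their positions are of build mm8. The processed signal is an intensity that the authors deposited background-subtracted and detrended within the array, per the file headers, with no scaling between arrays. The authors also deposited a table of log2 values, made with software not named in the labels or headers. It matched the values used here within 0.01 for 99.8% to 99.9% of probes, with column medians between -3.86 and -3.69, so its scale is known and it was not centred per probe.

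From the intensities, outlier spots (65 to 115 per array) were dropped, spots of a probe averaged, log2 taken and the array's 75th percentile subtracted. A gene was its brightest probe over the arrays. Genes were counted at 2-fold and 1.5-fold where well above background on both arrays, and no test was made between single arrays. The exception is an additive model in limma 3.58.1 (R 4.3.3) with terms for culture and oxygen over 4 arrays, on the 18361 genes that 2 or more arrays showed well above background, with Benjamini-Hochberg adjustment at 0.05; the script was tested on simulated data. The prior degrees of freedom were 2.82. Labels do not say whether arrays stem from separate cultures or embryos. Quantile normalization, normexp background (offset 50), scaling on 8 spiked-in control probes, the mean of all probes, no filter on dim probes, the deposited table, genes above background on any array and a robust, trended eBayes were tried as alternatives.

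Per-array values are given for catalytic and core members, for every member at least 2-fold apart, and for the 2 with the largest oxygen differences per direction and culture; other members are given by range, and 1 member is counted with the set but not reported by itself here. Gene symbols come from the array files. Promoters come from the RefSeq table of GRCm38.p6.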

Additional observations from a re-analysis of the deposited data

How the results depend on the processing

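Scaling on spiked-in controls moved the counts most, since it shifts all genes alike. Under it, genes of the set at least 2-fold higher in four-factor cells numbered 24 at 5% and 16 at 21% O2, and at least 2-fold lower 2 and 3; of all genes 34.9% and 22.8% were higher and 11.1% and 10.9% lower. At 1.5-fold they were 37 and 29 higher (50.8% and 40.2% of all genes), and 6 and 5 lower (16.5% and 16.9% of all genes). With oxygen, 1 was 2-fold higher (1.86% of all genes) and 10 were 1.5-fold higher (8.85% of all genes) in four-factor cells. In untransduced fibroblasts 0 were 2-fold higher (2.15% of all genes). The oxygen term of limma passed for 1 gene of the set, Cbx7, and for 2.99% of all genes. Normexp background left 0 genes of the set 2-fold and 0 genes 1.5-fold higher at 5% O2 in untransduced fibroblasts (1.28% and 4.39% of all genes). The mean of all probes gave 4 genes of the set 1.5-fold higher at 5% O2 in four-factor cells (4.7% of all genes), and a culture term of 0.012 for Cbx8. Fitting genes above background on any array left 21 genes of the set past limma's culture term (38.6% of all genes). Over all alternatives that count was 21 to 41, where 38.6% to 63.3% of all genes passed. Ezh2, Suz12, Eed, Pcgf5, Pcgf6, Cbx2, Cbx6, Cbx7, Chd7, Hdac11, Smarca1, Smarcc1, Smarcc2 and Smarcd3 passed it under each of the 6 limma alternatives, while Bmi1, Cbx8, Chd4, Chd5, Hdac1, Mbd2, Sirt2, Sirt4, Smarca2, Smarca4 and Smarca5 failed at least 1. The deposited table and the unfiltered probes left every count of the set within 1.5 times of its value, but over all genes the unfiltered probes gave 3.27% at least 2-fold higher with oxygen in four-factor cells in place of 1.25%, and 35.5% at least 2-fold lower in four-factor cells at 21% O2 in place of 16.6%. No paired analysis was possible because each condition had 1 array and the labels carry no replicate numbers to block on; limma's oxygen term has culture as its other term and so compares oxygen levels within each culture. What limits every value is that 1 array stands for a condition, so the spread between cultures is unknown. Except for the scaling shift, the cause was not tested.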

Other observations

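A second probe that the array names Chd2, a remodeller whose gene lies on chromosome 7, sits on chromosome 5 of build mm8 (24105853), near the probe of Smarcd3 (24102839 to 24103110). Its levels were -3.78 (5% O2) and -3.72 (21% O2) in four-factor cells, against -2.19 (5% O2) and -2.50 (21% O2) in untransduced fibroblasts. Four-factor minus untransduced, it differed by -1.60 at 5% and -1.22 at 21% O2. The Smarcd3 probe differed by -1.29 and -1.48, and the brighter Chd2 probe on chromosome 7 by -0.65 and -0.75, in both cases at 5% and 21% O2. The chromosome 5 probe was not used for Chd2 in the gene values above, which rest on the brightest probe. It did enter the mean of all probes, which put Chd2 at -1.12 at 5% and -0.98 at 21% O2. It also entered the probe counts below, where Chd2 is among the genes that disagreed with oxygen in four-factor cells.

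Probes of a gene disagreed in sign most often for small differences. With oxygen in four-factor cells this held for 17 of 42 genes with several measured probes, and in untransduced fibroblasts for 9 of 37. For the four-factor differences it held for 10 of 38 genes at 5% O2 and 10 of 37 at 21% O2, but among genes past 2-fold only for 1 of 9, Cbx8, at 5% O2 and for 0 of 5 at 21% O2.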
